A study of Apis mellifera with 27 samples.

Results

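Acetylation of histone H3 at lysine 27 (H3K27ac) was compared between brains of newly emerged honey bee (Apis mellifera) queens and workers, the reproductive and the sterile female caste. Peaks of the 2 queen libraries and the 2 worker libraries were merged wherever they shared at least 1 bp, which gave 30832 regions. A region was called queen-only where both queen libraries and neither worker library had a peak, and worker-only where both worker libraries and neither queen library had a peak. There were 2115 queen-only regions (6.86% of all regions) and 1735 worker-only regions (5.63%), and it is these regions, their positions and their genes that are described here. The series holds 27 samples, of which 24 have peak lists. The others are input controls, 1 each for queen, worker and drone. Drones, the haploid males, are used here only as a further readout.

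Each library came from a pool of 5 brains taken within an hour of emergence from offspring of the same mother queen. The optic lobes were removed from all brains, and the hypopharyngeal glands, which make food for larvae, from those of workers. No treatment or genetic change was applied. Queens and workers differ by the larval diet they received, and here also by rearing and handling. Queen larvae were grafted into queen cups and their cells kept in roller cages, while workers came from caged frames of capped brood. Caste cannot be told apart from these differences. Brain tissue mixes neurons, glia and other cells. In such tissue a changed share of a cell type and a changed mark within cells cannot be told apart. The caste also cannot be told apart from its control, because each caste had a single input.

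H3K27ac is placed by histone acetyltransferases on nucleosomes next to active promoters and enhancers, and it is removed by deacetylases. The same lysine may instead be trimethylated (H3K27me3) by Polycomb proteins, which accompanies repression, so that a lysine carries only acetylation or methylation. H3K4me1 marks many enhancers and H3K4me3 the starts of active genes. In honey bees the caste of a female is set by larval feeding, and ecdysteroid, juvenile hormone and insulin signalling have been linked to it.

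The Queen 1 library had 23450 peaks and Queen 2 had 25785, against 21671 in Worker 1 and 26256 in Worker 2. The number of tags behind each list, recovered from the deposited folds and p-values, was 14.96 M ± 1.06 in queen and 20.8 M ± 0.454 in worker (SD, n = 2 each). The median fold was nevertheless higher in queen, at 3.54 and 3.74 in the queen libraries against 3.03 and 3.21 in the worker libraries. The shortest peak was longer in both libraries numbered 1 (216 bp in queen, 219 bp in worker) than in both libraries numbered 2 (173 bp in queen, 181 bp in worker). The overlap of the lists, as the base pairs covered in both libraries over those covered in either, was 0.644 between the queen libraries and 0.760 between the worker libraries. Queen 2 shared more with Worker 2 (0.666) than with Queen 1, and about as much with Worker 1 (0.645). Queen 1 shared 0.641 with Worker 1 and 0.598 with Worker 2. The brain label was checked by markers. Syt1, Para and brp, which are neuronal genes, all held regions with a peak in all 4 libraries. Of the 4 matched photoreceptor opsins, Uvop and Blop each held 1 such region. The hypopharyngeal gland genes Mrjp1, Mrjp2 and Mrjp3 held none, nor did the fat body genes Vg, Hex70a and Hex110.

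The first question was whether the 4 libraries divided by caste more often than otherwise. Of the merged regions, 14733 (47.8%) had a peak in all 4 libraries and 7031 (22.8%) in a single library. The 3850 regions divided by caste were 12.5% of all regions. The 2 other ways of dividing 4 libraries into pairs mix the castes, and they held 769 regions (2.49%) and 778 regions (2.52%). Division by caste was therefore 4.98 times as frequent as the mean of the mixed divisions (log2 ratio 2.32). Leaving out a library lowered this log2 ratio, to 1.15 without Queen 1, 1.35 without Queen 2, 0.73 without Worker 1 and 0.52 without Worker 2. With 3 possible pairings the smallest one-sided p of an exact permutation test is 0.333, which is the value obtained, so the design cannot reach a p below 0.05. Within the mixed divisions the counts were uneven, with 611 regions (1.98%) shared by Queen 1 and Worker 2, 459 (1.49%) by Queen 2 and Worker 2, 310 (1.01%) by Queen 1 and Worker 1, and 167 (0.542%) by Queen 2 and Worker 1.

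**Figure D1:**
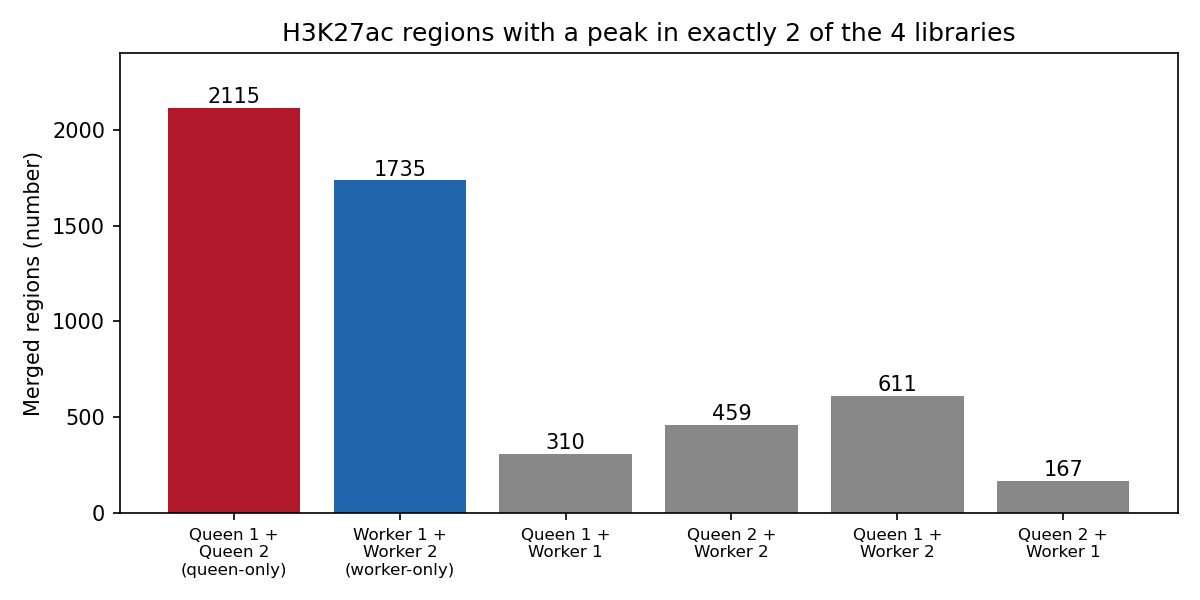
Number of merged H3K27ac regions (vertical axis) with a peak in exactly 2 of the 4 libraries, for each possible pair (horizontal axis). The queen-only bar (2115) and the worker-only bar (1735) exceed each of the 4 mixed pairs (grey, 167 to 611).

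Queen-only regions outnumbered worker-only regions 1.22 times (log2 ratio 0.29), although the queen libraries held fewer tags. The log2 ratio was 0.55 without Queen 1, 0.69 without Queen 2, −0.59 without Worker 1 and 0.29 without Worker 2. A caste left with a single library meets its definition in more regions by construction. The queen-only to worker-only log2 ratio was 0.079 when every list was cut to its 21671 peaks of lowest p-value. It was 0.66 when the summits were scaled to the lowest number of tags.

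The regions of the 2 castes had similar median widths and different median folds. The median width was 359 bp for queen-only regions and 362 bp for worker-only regions, against 303 bp in the mixed divisions and 665 bp in regions with a peak in all 4 libraries. Regions wider than 1000 bp made up 3.55% (75) of the queen-only and 2.31% (40) of the worker-only regions, and 30.6% of the regions in all 4 libraries. The fold of a peak is the tag pileup at its summit over the local background. The lower of the 2 folds had a median of 2.58 in queen-only and 1.92 in worker-only regions, beside 2.43 in the mixed divisions. It exceeded 4 in 340 queen-only regions (16.1%) and in 36 worker-only regions (2.07%). Regions in all 4 libraries likewise had higher folds in queen (median 4.16 and 4.64) than in worker (3.64 and 4.03), so the part of these general differences in the caste-divided regions was not tested.

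**Figure D2:**
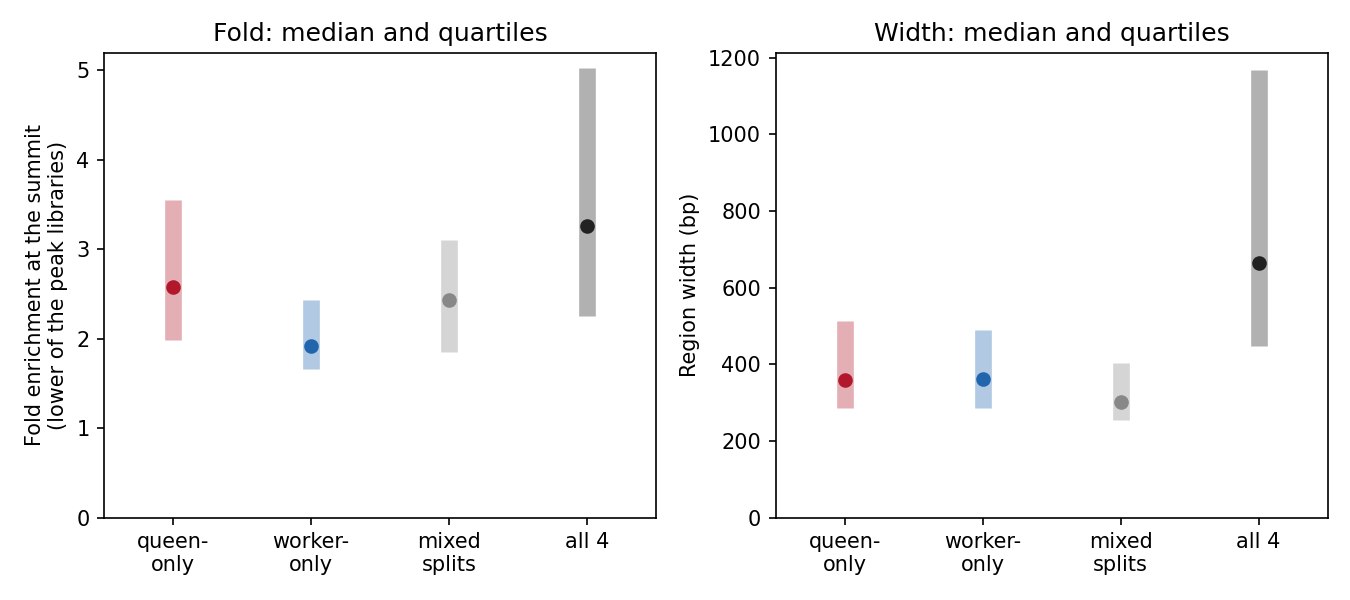
Median (points) and quartiles (bars) of the summit fold, as the lower of the libraries with a peak (left), and of the region width in bp (right), for queen-only, worker-only, mixed and fully shared regions. Queen-only regions had a median fold of 2.58 against 1.92 in worker-only regions, while the median widths were 359 and 362 bp.

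The highest queen-only region was a 361 bp region on chromosome 4 (5475068–5475428, Amel_HAv3.1) at a gene end, overlapping LOC413638 and LOC102655779. Its fold was 9.36 in Queen 1 and 11.6 in Queen 2. Para, the voltage-gated sodium channel that carries the action potential, held a queen-only region of 335 bp at chromosome 9, 6453338–6453672, with folds of 8.92 and 7.82, and another of 351 bp (6.27 and 4.45). The same gene held 3 worker-only regions, the highest of them at a gene end (3.16 in Worker 1 and 2.97 in Worker 2). The highest worker-only region lay in LOC408992 on chromosome 9 (11006350–11006782), with folds of 5.40 in Worker 1 and 5.77 in Worker 2. A neighbouring worker-only region at a gene end, in LOC408992 and LOC107964955, had folds of 4.72 and 5.09. The widest queen-only region (2998 bp, chromosome 10, LOC410211) had low folds of 1.98 and 3.02. Tsf1, which encodes the iron carrier transferrin, held a queen-only region that was both wide (1994 bp, chromosome 15, 7734102–7736095) and high (4.78 and 5.14). Wat, known in Drosophila as a fatty acyl-CoA reductase needed for gas filling of the tracheae, held another of 1938 bp (3.24 and 4.24). The widest worker-only region lay in LOC411009 on chromosome 4 (2357 bp, 1.66 and 1.86).

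Position was read from gene spans, since strand and exons were not used, and a gene end (within 200 bp of either end) may be a start or an end of transcription. Caste-divided regions lay in gene bodies in most cases, at 82.5% of queen-only and 85.9% of worker-only regions, against 82.4% of regions in all 4 libraries and 74.03% of the placed genome. Gene ends took 4.22% of queen-only regions (89 of 2111, exact 95% binomial interval 3.40 to 5.16%) and 2.71% of worker-only regions (47 of 1733, 2.00 to 3.59%). In regions with a peak in all 4 libraries the share was 7.31% (6.89 to 7.74%), and it was 4.07% of the genome. The mixed divisions gave 3.91% and 9.46%, so that the share also varied between divisions that do not follow caste. The intervals cover counting error only. Without Queen 1 the order of the castes turned, with 3.74% of queen-only and 3.94% of worker-only regions at gene ends. Widening gene ends to 1000 bp gave 16.2% in queen-only, 13.04% in worker-only and 28.5% in fully shared regions. Sequence between genes held 13.3% of queen-only and 11.4% of worker-only regions, against 10.3% of fully shared regions.

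Distances from caste-divided regions to acetylation of the other caste are given without a background from the mixed divisions. The nearest peak of the other caste was at a median distance of 1700 bp from queen-only regions and 1263 bp from worker-only regions. It was within 500 bp for 18.0% of queen-only and 23.1% of worker-only regions, and more than 5 kb away for 24.99% of queen-only and 22.4% of worker-only regions. Without those that had a peak of the other caste within 1000 bp, 1350 queen-only and 973 worker-only regions were left. By the same cut, the mean of the 2 mixed divisions fell from 773.5 to 398.5 regions.

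Caste-divided regions also stood in groups. A cluster was defined as at least 3 regions of the same kind with gaps of at most 10 kb. Queen-only regions formed 153 clusters with 621 regions (29.4% of those placed), and worker-only regions formed 84 clusters with 317 regions (18.3%). The 4 mixed pairs formed between 0 and 4 clusters each, but they held fewer regions. With only the 605 strongest queen-only and worker-only regions, an alternative chosen after the data were seen, there were 16 queen-only and 5 worker-only clusters. The mixed pair of Queen 1 and Worker 2, also with 605 regions, had 4. Queen 2 and Worker 2 had 4 with only 458 regions. The worker-only number was thus close to that of these mixed pairs. The other mixed pairs had fewer regions (309 and 167) and 0 clusters. Without Worker 1 there were 211 queen-only and 315 worker-only clusters.

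The queen-only cluster with most regions held 14 over 28077 bp of chromosome 16 (6989563–7017639) in LOC408552 and LOC408551. It contained no worker-only region and 2 regions with a peak in all 4 libraries. Clusters of 12 queen-only regions each lay in LOC102656585 on chromosome 2 and in LOC726697 on chromosome 14. LOC408872 on chromosome 6 held 17 queen-only regions, the most of any gene without a worker-only region, and 11 of them formed a cluster of 16870 bp with no fully shared region inside. The worker-only cluster with most regions also held 14, over 37996 bp of chromosome 7 (9473712–9511707) in LOC406124. A cluster of 9 on chromosome 4 (2894319–2930958) began in LOC726671, which held 4 worker-only regions, and ran on past that gene, and a cluster of 6 covered the low-coordinate end of DopR2 on chromosome 15 (6338708–6351777). Across chromosomes the ratio of queen-only to worker-only regions ran between 0.776 on chromosome 15 and 1.94 on chromosome 10.

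Of 12255 placed genes, 1107 (9.03%) overlapped at least 1 queen-only region and 920 (7.51%) at least 1 worker-only region. Queen-only without worker-only regions were found in 826 genes (6.74%), the reverse in 639 (5.21%), and both in 281. The mixed divisions touched 601 and 642 genes. Long genes collected more regions of both kinds. Of the 393 genes of at least 100 kb, 212 held queen-only and 242 worker-only regions. A gene's count is therefore to be read beside its length and its other regions.

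Genes of hormone signalling held regions of opposite castes. Usp (chromosome 9, 54.5 kb) encodes ultraspiracle, the nuclear receptor that pairs with the ecdysone receptor. It held 10 queen-only regions, no worker-only and no mixed region, beside 15 regions in all 4 libraries. Its queen-only regions had folds between 1.69 and 6.12 in Queen 1 and between 2.07 and 5.59 in Queen 2, and the region of 368 bp at 7452741–7453108 had 6.12 and 4.85. A group of 3 lay within 7410249–7412116, the highest with folds of 5.53 and 4.95. Ecr (chromosome 8, 120853 bp), the ecdysone receptor itself, held 5 worker-only, no queen-only and 2 mixed regions beside 34 in all 4 libraries. The highest of its worker-only regions had folds of 4.29 in Worker 1 and 3.29 in Worker 2.

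E75, Br-c (broad complex) and E74 belong to the early response to ecdysone. E75 held 2 worker-only, no queen-only and 1 mixed region, and Br-c held 2 worker-only, no queen-only and 2 mixed regions. E74 held 3 queen-only, 5 worker-only and 2 mixed regions. Mblk-1, a transcription factor of the mushroom bodies, held 1 worker-only region. Mad, the transcription factor that carries bone morphogenetic protein signals into the nucleus, held 3 queen-only, 10 worker-only and 7 mixed regions over 409447 bp. In the hormone and nutrient list as a whole, 17 of 32 names matched, and these genes held 13 queen-only, 15 worker-only and 7 mixed regions. Queen-only regions were present in 2 of the genes (11.8%) and worker-only regions in 5 (29.4%), beside 9.03% and 7.51% of all genes and 53.9% and 61.6% of genes of at least 100 kb. Ecr, E74 and E75 are each longer than 100 kb. The genes for vitellogenin (Vg), the storage hexamerins Hex70a and Hex110, and the juvenile hormone esterase Jhe held none of either kind. Cyp314a1, whose Drosophila counterpart makes the active ecdysone, lies outside that list, was picked after its value was seen and held 1 queen-only region (2.17 and 2.33).

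Some genes of sex and behaviour held queen-only and no worker-only regions. So did 6.74% of all genes and 23.8% of genes of at least 20 kb. Dsx (doublesex, 91.5 kb) is the transcription factor at the end of the sex determination pathway. It held 7 queen-only and no worker-only regions on chromosome 5, with 1 region in all 4 libraries. The highest had folds of 4.64 in Queen 1 and 5.94 in Queen 2 (3589965–3590347), and the next lay less than 1000 bp away (4.50 and 4.65). For (foraging, 79874 bp) is a cGMP-dependent protein kinase linked to foraging behaviour in bees and flies. It held 6 queen-only and no worker-only regions on chromosome 13. Its highest region (724 bp, 10166836–10167559) had folds of 5.09 and 6.04. Dnmt3, the de novo DNA methyltransferase whose silencing in larvae yields queen-like adults, held 1 queen-only region (2.502 and 3.33), and the maintenance enzyme gene Dnmt1a held no caste-divided region. Outside the naming rule, and picked after their values were seen, Dll (Distal-less) and Foxp each held 2 queen-only regions. Likewise picked were the fatty acid-binding protein gene Fabp (folds 5.97 and 8.91), ACSF2 of the acyl-CoA synthetase family (5.22 and 7.103) and the trehalose transporter Tret1 (2.97 and 3.66), with 1 queen-only region each.

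Biogenic amines tune arousal, learning and movement. The 11 matched genes for their receptors, enzymes and transporters held 2 queen-only, 16 worker-only and 1 mixed region in all. Of the 16, 7 lay in DopR2 alone. Oa1, 5-HT2alpha, 5-HT2beta, Dat and Tbh held neither queen-only nor worker-only regions. DopR2, a dopamine receptor, held 7 worker-only regions in 63.2 kb and no queen-only region. Of these, 5 lay within 6345614–6351777, the last with folds of 3.17 in Worker 1 and 2.99 in Worker 2. The other dopamine receptors Dop3 and Dop1 held 3 and 2 worker-only regions, with folds of up to 2.74 and 3.28 in Worker 1 and of up to 2.55 and 4.04 in Worker 2. The tyramine receptor TyrR held 2 with lower folds (1.52 to 1.78). The serotonin receptor 5-HT1 held 1 queen-only and 2 worker-only regions, and 5-ht7 held 1 queen-only region (3.24 and 2.99). TyHyd, the tyrosine hydroxylase that starts dopamine synthesis, is outside this list, was picked after its value was seen and held 1 queen-only region (1.93 and 2.62). In the list, 18.2% of genes held queen-only and 45.5% held worker-only regions. Among genes of at least 20 kb these shares were 40.2% and 36.2%, and among genes of at least 100 kb 53.9% and 61.6%. Over all genes they were 9.03% and 7.51%. The list was chosen with earlier results of these data known.

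Receptors for acetylcholine, GABA and glutamate and related channels showed a like balance, with 8 queen-only, 32 worker-only and 16 mixed regions in 17 genes. Worker-only regions were present in 9 of these genes (52.9%) and queen-only regions in 4 (23.5%). The nicotinic acetylcholine receptor genes nAChRa1 (116518 bp), nAChRa6 (349900 bp) and nAChRa7 (244157 bp) each held 4 worker-only and no queen-only regions. The highest of these lay in nAChRa7, with folds of 3.75 in Worker 1 and 4.37 in Worker 2 on chromosome 14 (1986478–1986728). nAChRa3 held 3 queen-only and 7 worker-only regions, and nAChRa4 held 2 of each. Cac, the calcium channel of transmitter release, held 6 worker-only regions, of which 4 formed a cluster of 8581 bp on chromosome 3. The last region of that cluster had folds of 3.65 in Worker 1 and 4.47 in Worker 2. Nmdar1 held 1 (2.73 and 3.13). For comparison, genes of at least 20 kb held queen-only regions in 40.2% and worker-only regions in 36.2% of cases. Genes of at least 100 kb held them in 53.9% and 61.6% of cases, and 24.9% held worker-only and no queen-only regions. The median length was 37514 bp in this list and 63164 bp in the amine list.

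Of the 4 matched genes of the learning and foraging list, For held queen-only regions (6) and the others held worker-only regions (7 in all), with 5 mixed regions. The median length of these genes was 103890 bp, so the shares of long genes given above apply. Nrx-1 (neurexin, a presynaptic adhesion protein) held 4 worker-only regions with folds between 1.49 and 2.43, and the calcium sensor Syt1 held 1 (2.76 and 2.78). Camkii, a kinase of synaptic plasticity, held 2 worker-only and 5 mixed regions beside 42 in all 4 libraries. NLG-5, a neuroligin and so of the family that binds neurexins, was picked after its values were seen and held 4 worker-only regions, of which the highest had folds of 3.09 and 3.53. Kakusei, a nuclear non-coding RNA induced by neural activity in worker brains, was also picked after its values were seen. It held a worker-only region at a gene end (521 bp, chromosome 2, 14409801–14410321, folds 3.94 and 3.57). That region also spanned Mir6038. Neither the 7 matched neuropeptide genes nor the clock genes Per and Cry2 nor the Hox genes Ubx and Antp held a caste-divided region. Of the 13 matched royal jelly and yellow genes, Y-y alone did, with 1 worker-only region (7.69% of these genes). Only 7 of 26 neuropeptide names, 2 of 12 clock names and 2 of 10 Hox names matched. The neuropeptide genes had a median length of 1730 bp, and Ubx and Antp held no region in all 4 libraries either. Since 9.03% of all genes held queen-only and 7.51% worker-only regions, an absence in so few genes is not read as a result. Among 236 microRNA genes, queen-only regions overlapped 5 (Mir3720, Mir6000a, Mir6000b, Mir6040 and Mir87-2) and worker-only regions 5 (Mir6038, Mir210, Mir989, Mir927a and Mir929), which is 2.12% each, below the 9.03% and 7.51% of all genes. MicroRNA genes are short, with a median of 92 bp. Mir6000a, Mir6000b and Mir6040 lay in the same region of 1482 bp on chromosome 11.

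**Figure D3:**
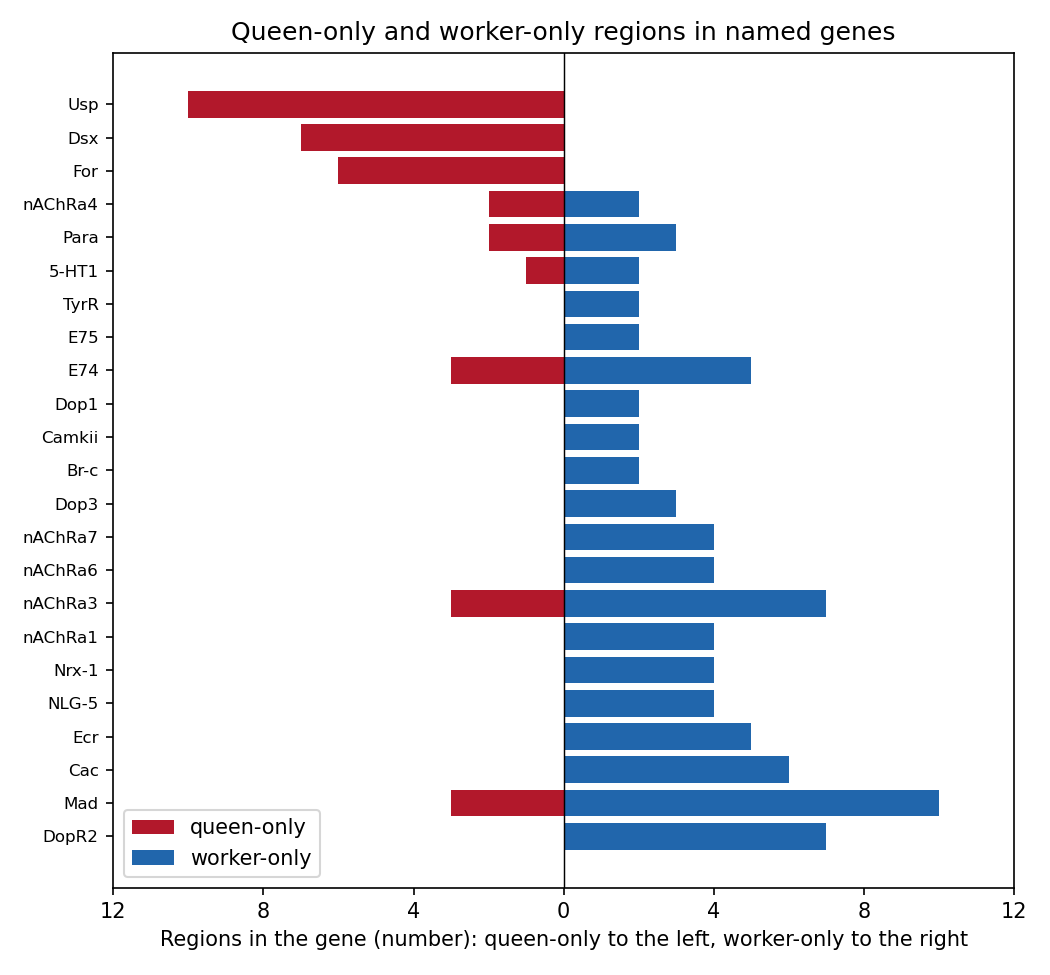
Number of queen-only regions (red, to the left) and worker-only regions (blue, to the right) in genes of the lists with at least 2 such regions, with Dsx and NLG-5 added (vertical axis, by queen-only minus worker-only number). Usp held 10 queen-only and 0 worker-only regions, DopR2 0 and 7, and Mad 3 and 10.

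Regions with a peak in all 4 libraries were then compared by height. The definition of the caste-divided regions did not use these regions, but their heights come from the same 4 libraries and are not independent of it. The log2 of the highest fold in each region was centred on the median of its library, because before centring queen exceeded worker by 0.20 at the median. With limma and Benjamini-Hochberg adjustment over 14733 regions, 0 were higher in queen (0%) and 0 higher in worker (0%) at an adjusted p of 0.05, and the smallest adjusted p was 0.0582. At an unadjusted p of 0.05 there were 1836 higher in queen (12.5%) and 1838 higher in worker (12.5%). The median absolute difference was 0.27 with a median standard error of 0.18. The call depended on the setting. Fitting the replicate number as a block gave 358 regions higher in queen and 244 higher in worker, but the labels give no batch shared by number. Pileup per M tags in place of fold, without a block, gave 179 regions higher in queen and 110 higher in worker. Without Queen 2 there were 1455 and 1214, and without Queen 1 there were 648 and 510, in each case on the assumption that the lone queen library varied like the workers. Without Worker 1 or Worker 2 there were 0. In 8316 regions (56.4%) both centred values of a caste lay above both of the other, while the mixed divisions did so in 21.3% and 22.2%.

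Since no region passed the threshold, the largest differences among regions whose castes did not overlap are given as a description chosen after the values were seen. LOC409655 on chromosome 16 held the largest towards queen, with folds of 6.24 and 8.18 in queen against 1.75 and 1.64 in worker (log2 difference 1.88, SE 0.18). A 2040 bp region in LOC408953 on chromosome 7 had folds of 17.7 and 17.6 in queen against 3.96 and 6.36 in worker (log2 difference 1.62). A region in nAChRa9, which also overlapped LOC408989, had folds of 12.6 and 14.5 in queen against 4.04 and 4.63 in worker (log2 difference 1.45). Towards worker, 2 adjoining regions of LOC102655815 on chromosome 14 led. The first had folds of 1.43 and 1.76 in queen against 3.798 and 5.50 in worker (log2 difference −1.72). The second had folds of 2.52 and 2.86 in queen against 6.32 and 8.84 in worker (log2 difference −1.67). A region of Y-h, of the yellow family, had folds of 2.04 and 2.83 in queen against 4.64 and 6.18 in worker (log2 difference −1.35).

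The heights of fully shared regions were set beside the caste-divided regions of the same gene. The regions of a gene share their libraries and are not independent of each other, so no test was made. In Cac all 30 shared regions had a negative queen minus worker difference (median −0.62), and in 29 of them both worker values lay above both queen values. LOC406124 likewise had 16 of 16 differences below 0 (median −0.70, range −1.06 to −0.22). DopR2 had 3 shared regions, all lower in queen (median −0.77), and both of those in Kakusei were lower in queen (−0.82 and −0.76). In the other direction, all 6 shared regions of For were higher in queen (median 0.36), as were 11 of 15 in Usp (median 0.28) and the single one in Dsx (1.31). LOC102656338, a long non-coding RNA gene with 10 queen-only regions, had all 11 shared regions higher in queen (median 0.42). Ecr did not follow its worker-only regions, with 20 of 34 shared regions higher in queen and a median of 0.065. Mad lay near 0 (median −0.030, 47 regions).

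Over all genes with a shared region, the median difference was above 0 in 68.1% of 574 genes with queen-only and no worker-only regions, in 30.2% of 457 genes with worker-only and no queen-only regions, and in 40.6% of 271 genes with both. Of 97 genes with at least 3 queen-only and no worker-only regions, 81 (83.5%) had a median difference above 0. Of 79 genes with at least 3 worker-only and no queen-only regions, 12 (15.2%) had a median above 0. Genes with neither kind had a median above 0 in 55.5% of 3482 cases. Both readouts come from the same 4 libraries and often from nearby sequence, so a like direction within a gene is not separate evidence.

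**Figure D4:**
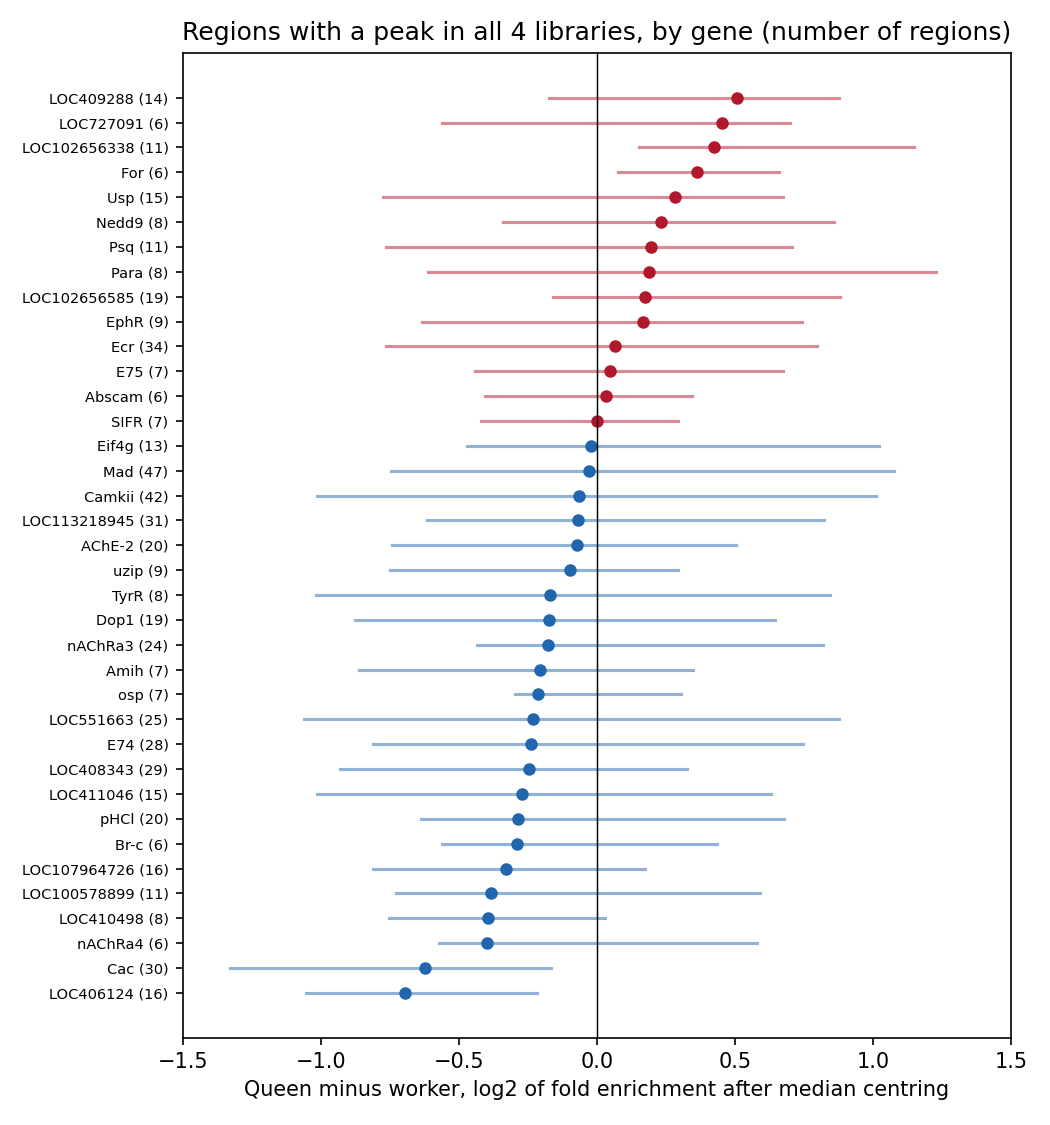
Queen minus worker difference in the log2 of the summit fold, after median centring (horizontal axis), in regions with a peak in all 4 libraries, for named genes with at least 6 such regions (vertical axis, number of regions in parentheses). Points are medians and lines run between the lowest and the highest region. Cac and LOC406124 lie wholly below 0, and For and LOC102656338 wholly above 0.

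The other marks of the same castes were read at the same regions. At queen-only regions H3K4me1 peaks were present in 36.0% and 31.5% of regions in the queen libraries, against 12.1% and 14.1% in the worker libraries (means 33.8% ± 3.14 and 13.1% ± 1.40, SD, n = 2 each). At worker-only regions the castes overlapped, with 19.4% and 18.2% in queen against 17.7% and 22.7% in worker. In the mixed divisions H3K4me1 was present in 26.3% ± 1.23 of regions in queen and 17.8% ± 0.366 in worker. At fully shared regions H3K4me1 was present in 39.0% ± 0.408 of regions in queen and 25.3% ± 3.19 in worker, so that queen lists held more H3K4me1 in general.

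H3K4me3 lay at 10.3% ± 1.64 of queen-only regions in queen and 3.29% ± 1.04 in worker. At worker-only regions it lay at 8.79% ± 0.774 in queen and 11.99% ± 2.36 in worker, while at fully shared regions it was at 36.2% ± 2.37 in queen and 29.8% ± 2.92 in worker. For H3K4me3 the caste with the acetylation thus had the higher share in both directions and the libraries did not overlap. In the mixed divisions H3K4me3 lay at 11.3% ± 1.83 of regions in queen and 8.34% ± 3.38 in worker, and there the libraries overlapped. An exact two-sided permutation test gave p = 0.333 for each of these differences that did not overlap, the smallest the 4 libraries (n = 2 each) allow.

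H3K27me3 at queen-only regions was slightly lower in queen than in worker (difference −0.80 percentage points, without overlap), and at worker-only regions the castes overlapped. It was present at 8.06% ± 0.435 of queen-only regions in queen and 8.87% ± 0.234 in worker, and at 6.60% ± 0.204 of worker-only regions in queen and 6.43% ± 0.856 in worker. Fully shared regions had it at 2.54% ± 0.0528 in queen and 1.98% ± 0.125 in worker. In the 2 mixed divisions the queen minus worker difference was 0.85 and −0.45 percentage points, each without overlap. The −0.80 at queen-only regions was thus no larger in size than a difference found in a division that does not follow caste. H3K27me3 in both libraries of 1 caste and neither of the other was rare and not tied to the caste that lacked acetylation. At queen-only regions it was in both worker libraries alone at 12 (0.567%) and in both queen libraries alone at 14 (0.662%). At worker-only regions it was in both queen libraries alone at 13 (0.749%) and in both worker libraries alone at 13 (0.749%). Fully shared regions had 0.597% for queen and 0.183% for worker. Among the regions with H3K27me3 in the caste that lacked acetylation were a region of the queen-only cluster in LOC408551 (1444 bp, folds 2.26 and 2.52) and 3 worker-only regions of LOC413503 on chromosome 3. LOC413503 was picked after its values were seen.

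**Figure D5:**
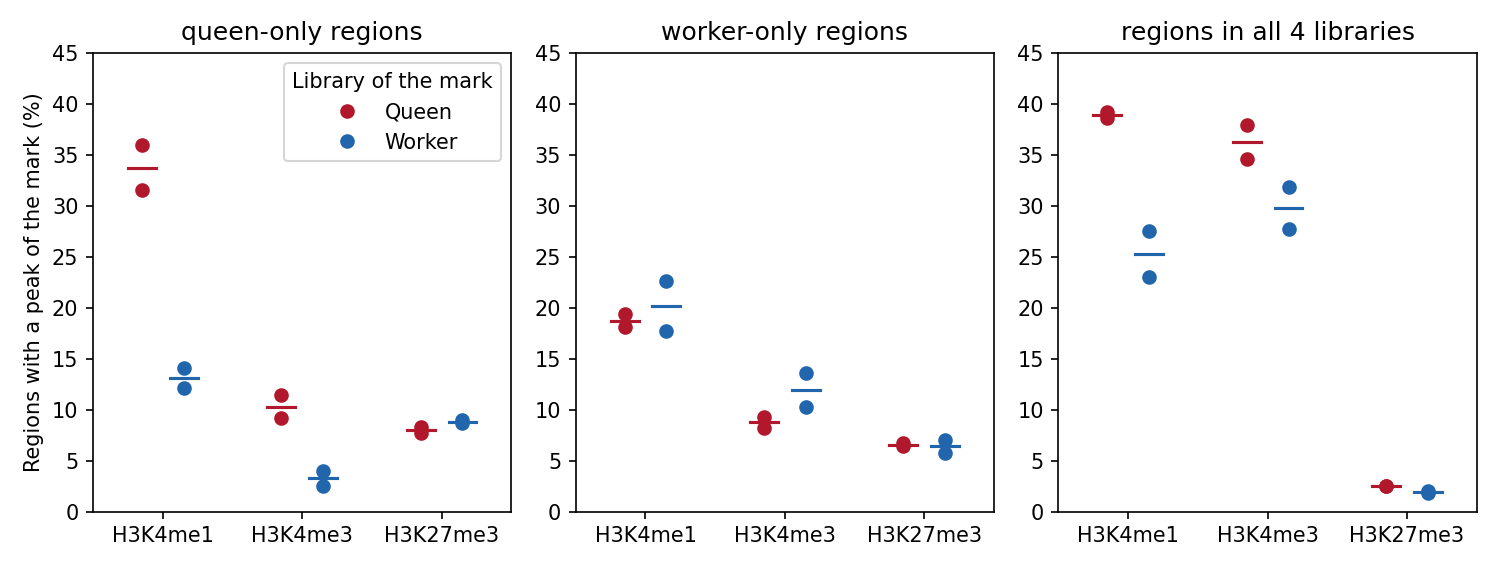
Share of regions (vertical axis, %) that carry a peak of H3K4me1, H3K4me3 or H3K27me3 in each queen (red) and worker (blue) library of that mark, for queen-only, worker-only and fully shared H3K27ac regions. Points are libraries and lines their means. At queen-only regions H3K4me1 is at 31.5 to 36.0% in queen and 12.1 to 14.1% in worker.

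Drone brains were a further readout the definition did not use. Drones are haploid males, so sex and ploidy also differ from those of queens and workers. Both drone H3K27ac libraries had a peak at 27.1% of queen-only regions and at 18.0% of worker-only regions, and neither had 1 at 55.2% of queen-only and 65.4% of worker-only regions. In the mixed divisions 23.1% had a peak in both drone libraries, and in fully shared regions 81.8%. By library, drone replicate 1 had a peak at 37.8% of queen-only and 30.8% of worker-only regions, and drone replicate 2 at 34.1% and 21.8%. In the mixed divisions these shares were 34.0% in replicate 1 and 35.2% in replicate 2, and neither drone library had a peak at 53.9%. Queen-only regions thus carried a drone peak more often than worker-only regions in both drone libraries. Against the mixed divisions, queen-only regions lay slightly above in replicate 1 and slightly below in replicate 2. Worker-only regions lay below them in both, and their folds were also lower, the part of which was not tested.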

How the data were processed

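ChIP-seq peak lists of 24 libraries were used. The authors mapped reads with BWA (0.7.17) to Amel_HAv3.1 and called peaks per library with MACS2. The deposited lists give each peak's fold, a ratio of summit pileup to local background, and the −log10 of its p-value and q-value. Pileups and tag numbers were solved from these, with whole pileups (within 0.02) at 99.995% or more of peaks. The genome size was 2.7e+08 bp and the fragment length was taken as the shortest peak. A region without a peak lacks a call, not necessarily the mark, and weak peaks are lost first in lists with fewer tags.

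Groups came from the labels. Peaks were merged at 1 bp overlap (Python 3.11.15, pandas 2.3.3) and assigned to genes of a RefSeq table of the same assembly (12398 genes). Heights were tested with limma (3.58.1, R 4.3.3), tested on simulated data first, with a threshold of 0.05. The default constant prior variance was used, and a trend was also run, both after the data were seen. Intervals are exact binomial (95%).

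Named genes were the first 12 by number of regions of 1 kind only, those at the 8 highest and 6 widest regions of each kind, the 8 largest called height differences in each direction, the 3 clusters with most regions in each direction, and list members with a caste-divided region. Others are identified as picked later. Members and lists were chosen with earlier results of these data known. Lists of glial and muscle markers matched no gene. No sequences were read. Labels do not say whether pools shared a colony beyond the mother, so the spread between libraries may be partly technical.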

Additional observations from a re-analysis of the deposited data

How the results depend on the processing

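With a −log10 q of at least 5, a −log10 p of at least 4, peaks within 500 bp joined or placed chromosomes only, the counts of regions stayed within 1.5 times and the ratios kept their direction. The largest of these shifts came from joining, which gave 1520 queen-only, 1203 worker-only and 554.5 mixed regions. Equal numbers of peaks gave a log2 ratio of queen-only to worker-only regions of 0.079, and scaling to the lowest number of tags gave 0.66. Without regions that had a peak of the other side within 1000 bp there were 1350 queen-only, 973 worker-only and 398.5 mixed regions (mean of the 2 divisions), with a queen to worker log2 ratio of 0.47. Leaving out each library, the queen-only number ran between 2656 and 4672, the worker-only number between 2535 and 4004, the mixed mean between 2980.5 and 4026, the caste to mixed log2 ratio between 0.52 and 1.35, and the queen to worker log2 ratio between −0.59 (without Worker 1) and 0.69. With a single library deciding for a caste, more regions meet the definition by construction. The share at gene ends then ran between 3.74% and 6.001% for queen-only and 2.60% and 3.94% for worker-only regions, the share between genes between 12.3% and 13.1% for queen-only and 10.1% and 11.8% for worker-only regions, and the clusters between 211 and 442 for queen-only and 168 and 315 for worker-only regions. Gene ends of 1000 bp took 16.2% of queen-only and 13.04% of worker-only regions and left 10.6% of queen-only regions between genes, and any overlap with a gene end gave 8.15% and 5.77%. A gap of 20 kb gave 140 worker-only clusters, a gap of 5 kb gave 99 queen-only and 45 worker-only clusters, and the 605 strongest regions of each kind, chosen after seeing the data, gave 16 and 5. Gene spans widened by 1000 bp and the lowest number of tags moved the numbers of genes by less than 1.5 times. For shared regions higher in queen and in worker, pileup per M tags gave 179 and 110, and leaving out each library gave 0 to 1455 and 0 to 1214, the cause of which was not tested. Cyclic loess, a mean fold of at least 3 and a trend in the prior variance (added after seeing the data) gave 0 in both directions, with the smallest adjusted p of the main limma fit at 0.0582. The replicate numbers were not taken as pairs, since the labels give no shared batch and the deviations of same-numbered libraries had a correlation of −0.00035, although the shortest peaks followed the number. The replicate block gave 358 regions higher in queen and 244 higher in worker. The lists rest on 14.96 M tags in queen and 20.8 M in worker on average, and how far this set the calls was not tested beyond the scaling above.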
